A study of Homo sapiens with 8 samples.

Results

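The mRNA of 10 enzymes that make serine and glycine and move their one-carbon units on folate was followed in 8 RNA-seq libraries of cells labelled HepG2, a human liver carcinoma line. The set was given as a list of symbols, each of which had to have a row in the deposited expression table, and all 10 of 10 had one among 14526 genes. The groups were 4 control replicates and 4 replicates kept with 10 mM sodium benzoate (SB) for 24 h, all in DMEM with 10% serum. Recovered reads per library ranged from 37010896 to 44518459 in the control group and from 37182459 to 44903221 in the SB-treated group. Of 20 genes characteristic of hepatocytes, 17 had no row in the table, among them ALB, AFP, APOA1, TTR and HNF4A, and those with a row included TF and CPS1, at 0.192 and 6.57 RPKM in the controls. RPKM is the read number scaled to gene length and library size. Of 8 genes of blood, endothelial cells or fibroblasts, LYZ at 0.926 RPKM and COL1A1 at 4.86 RPKM in the controls had a row. The liver character that the label implies is therefore largely absent from the table, and the cells are called here by their label only. The 3 hepatocyte genes with a row were called higher after SB (limma, adjusted p below 0.05), as were 33.0% of all genes. TF was then at 0.379 and CPS1 at 11.02 RPKM. LYZ and COL1A1 did not pass the test. Without control replicate 1, COL1A1 was called lower (log2 fold change -0.31, limma adjusted p = 2.38e-06, against -0.19 and 0.133 with it), as were 37.9% of all genes. The part of either set of genes in the results was not tested.

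Cells make serine from the glycolytic intermediate 3-phosphoglycerate in a short pathway of dehydrogenase, aminotransferase and phosphatase. Serine hydroxymethyltransferase then passes the side-chain carbon of serine to tetrahydrofolate and leaves glycine, in the cytosol and in the mitochondrion, and the folate-bound carbon is carried between oxidation states for the synthesis of purines, thymidylate and methionine. Glycine is broken down by the mitochondrial glycine cleavage system. In liver, benzoate is activated to benzoyl-CoA and joined to glycine, which gives hippurate, so glycine is the partner that benzoate consumes there.

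The 250 bases upstream of the start used there were read for the 8 enzymes with an entry in the RefSeq promoter sequences (GRCh38.p14). Gene spans given below come from GENCODE, whose starts can differ. The windows of PHGDH, MTHFD1L, MTHFD1 and MTHFD2 lie inside those spans. PSPH and SHMT2 are named only. Sequences of 4 genes are shown because their genes stand at the ends of the range of change described below, or because they hold a searched motif. Capitals mark a motif, found on either strand: TGATGNAA (the core that C/EBP and ATF factors share), CACGTG (the E-box) or TGACNNNGC (the core of the antioxidant response element). No marked motif overlaps another.
PHGDH (chr1:119711684-119711933, plus strand): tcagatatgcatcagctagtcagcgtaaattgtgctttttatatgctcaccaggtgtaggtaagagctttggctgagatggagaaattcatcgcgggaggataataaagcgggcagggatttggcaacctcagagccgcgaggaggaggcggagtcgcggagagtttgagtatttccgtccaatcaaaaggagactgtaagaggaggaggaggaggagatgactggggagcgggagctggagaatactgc
MTHFD1L (chr6:150866236-150866485, plus strand): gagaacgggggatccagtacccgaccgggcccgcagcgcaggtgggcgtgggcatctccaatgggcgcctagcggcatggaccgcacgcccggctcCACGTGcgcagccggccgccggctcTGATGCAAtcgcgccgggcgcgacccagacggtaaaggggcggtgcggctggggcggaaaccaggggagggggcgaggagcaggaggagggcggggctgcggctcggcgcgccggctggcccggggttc
MTHFD1 (chr14:64388103-64388352, plus strand): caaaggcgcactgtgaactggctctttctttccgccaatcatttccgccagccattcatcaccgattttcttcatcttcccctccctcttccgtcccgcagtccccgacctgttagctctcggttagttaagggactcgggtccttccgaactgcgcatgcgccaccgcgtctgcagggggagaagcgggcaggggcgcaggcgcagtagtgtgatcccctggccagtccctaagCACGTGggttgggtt
GCSH (chr16:81096396-81096645, minus strand): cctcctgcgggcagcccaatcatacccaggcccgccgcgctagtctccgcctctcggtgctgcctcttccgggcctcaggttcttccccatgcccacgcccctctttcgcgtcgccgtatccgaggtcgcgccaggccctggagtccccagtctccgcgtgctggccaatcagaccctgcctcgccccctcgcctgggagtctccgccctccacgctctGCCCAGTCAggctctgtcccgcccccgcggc
TGATGNAA was present in 1 of the 8 windows (MTHFD1L), against 3.19% of the windows of 27305 genes and 1.35% of those of 10651 genes with a row in the table. CACGTG was present in 2 of 8 (MTHFD1L and MTHFD1), against 6.49% and 8.85%. TGACNNNGC was present in 1 of 8 (GCSH, as its reverse complement), against 11.03% and 12.04%. MTHFD1L has further annotated starts, and the first listed was used for these counts. The windows of PHGDH, PSAT1, MTHFD2, GLDC and SHMT1 held none of these motifs.

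The question put to these data was whether the mRNAs of the 10 enzymes differed between SB-treated and control cells. Not all of the 10 supply glycine. GLDC and GCSH belong to its breakdown, and MTHFD1, MTHFD2 and MTHFD1L handle folate-bound carbon. Of the 10 mRNAs, 9 fell, none rose and PHGDH did not pass the test (limma, adjusted p below 0.05). Over all 14526 genes, 32.6% were called lower and 33.0% higher. The 4 SB-treated values lay below all 4 control values for the same 9 genes, and groups did not overlap in this direction for 30.5% of all genes. The median log2 fold change of the 10 was -0.45, against 0.00451 over all genes. Fold changes are on the scale of log2(RPKM + 1), and each of the 10 was above 7 RPKM in every library. The added 1 shrinks the change most for GLDC, the least abundant, at -0.54 against -0.59 with 0.1 added. The 10 enzymes took 0.351% ± 0.0115 of the reads (SD, n = 4) in the control group and 0.306% ± 0.00113 (SD, n = 4) in the SB-treated group.

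The size of the fall was not uniform. As a percent change of the mean RPKM it lay between -41.0 (GCSH) and -24.6 (PSPH) for 7 genes, and was -7.96 for MTHFD2 and -7.20 for MTHFD1L. The deposited values carry the authors' TMM factors, which scale libraries by the bulk of the genes. Without these factors every ratio of SB-treated to control RPKM moves up by 0.105 in log2, the median log2 fold change of RPKM + 1 over all genes moves from 0.00451 to 0.0791, the calls over all genes become 6253 higher and 3357 lower in place of 4787 and 4740, and 7 of the 10 enzymes remained called lower.

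**Figure D1:**
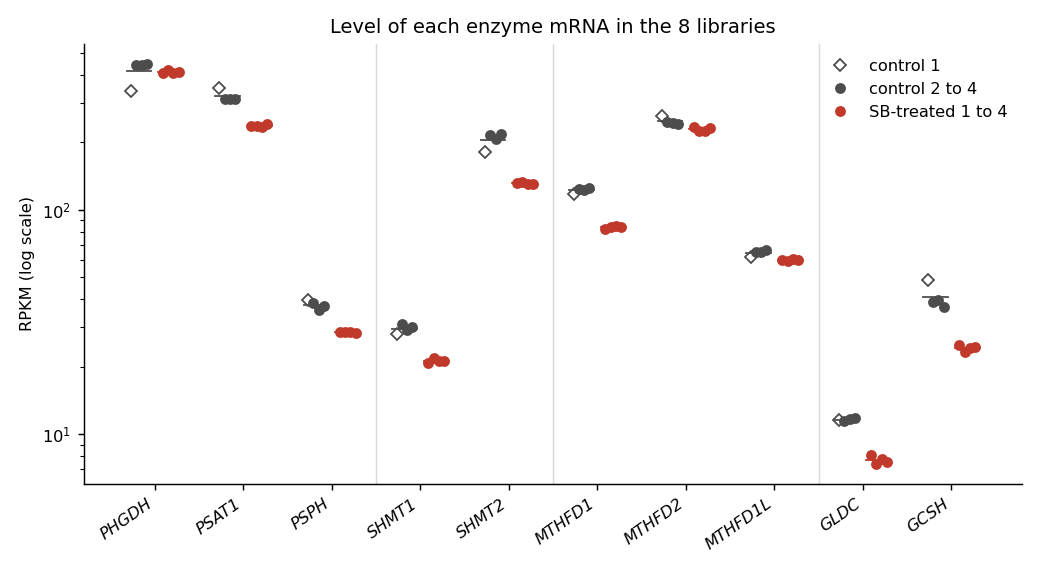
RPKM (log axis) of each enzyme mRNA in the 8 libraries, with controls in grey, SB-treated cells in red and a line at each group mean. Control replicate 1, the open diamond, stands below the SB-treated libraries for PHGDH, and the groups do not overlap for the other 9.

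Serine synthesis comes first. PHGDH encodes phosphoglycerate dehydrogenase, the entry enzyme, and lies on chromosome 1 from 119648411 to 119744218 (hg38, plus strand). It was the most abundant of the set, above 99.3% of all genes. Its RPKM was 340.2 in control replicate 1 and 441, 443 and 447 in control replicates 2, 3 and 4, and 407, 419, 408 and 409.7 in SB-treated replicates 1 to 4. The groups overlapped, because control replicate 1 was the lowest of all 8 and the other controls were the highest. The log2 fold change was -0.01 with a 95% interval from -0.20 to 0.17 (limma adjusted p = 0.884). Without control replicate 1 it was -0.11 (limma adjusted p = 0.00227), and then 10 of 10 enzymes were called lower, against 37.9% of all genes.

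PSAT1, phosphoserine aminotransferase, acts next. Control replicates 1 to 4 stood at 350.4, 312, 312 and 313 RPKM, and SB-treated replicates 1 to 4 at 237, 237, 234 and 240.2 RPKM. Every SB-treated library was below every control. The log2 fold change was -0.44 (SE 0.044) at an adjusted p of 2.11e-05, and -0.40 without control replicate 1, which was here the highest library. PSPH, the phosphatase that releases serine, was at 39.9, 38.3, 35.8 and 37.4 RPKM in the controls and at 28.5, 28.6, 28.6 and 28.4 RPKM after SB. The SB-treated values were nearly equal, and the log2 fold change was -0.39 (SE 0.038) at an adjusted p of 1.70e-05. The later steps of the pathway thus fell while the first did not pass the test with all libraries.

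The exchange of serine and glycine is catalysed by SHMT1 in the cytosol and SHMT2 in the mitochondrion. SHMT2 was the more abundant. It was at 181, 215, 208 and 217 RPKM in control replicates 1 to 4 and at 131, 133, 130.3 and 130.2 RPKM in SB-treated replicates 1 to 4. Even the lowest control, replicate 1, was 47.9 RPKM above the highest SB-treated library. The log2 fold change was -0.64 (SE 0.056) at an adjusted p of 9.12e-06, and 2.21% of all genes had a lower one. SHMT1 was at 28.0, 31.1, 29.2 and 30.2 RPKM in the controls and at 20.8, 21.8, 21.3 and 21.3 RPKM after SB. Both isozymes fell, and for SHMT1 the log2 fold change was -0.46 (SE 0.039) at an adjusted p of 8.26e-06.

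Among the folate enzymes, the cytosolic and mitochondrial members moved by different amounts. MTHFD1 is the trifunctional cytosolic enzyme that interconverts the folate one-carbon forms. It was at 117, 124, 123 and 126 RPKM in control replicates 1 to 4 and at 82.5, 84.1, 84.7 and 84.1 RPKM in SB-treated replicates 1 to 4. The log2 fold change was -0.54 (SE 0.034) at an adjusted p of 1.46e-06, the lowest p of the 10. MTHFD2, the mitochondrial dehydrogenase and cyclohydrolase, was at 262, 246, 243 and 242 RPKM in the controls and at 234, 224, 225 and 231 RPKM after SB. The groups were apart by 8.42 RPKM. Its log2 fold change was -0.12 (SE 0.037) at an adjusted p of 0.0177. The call was lost without SB-treated replicate 2 (adjusted p = 0.0532), without SB-treated replicate 3 (adjusted p = 0.0523) and without TMM factors (-0.01, adjusted p = 0.740). MTHFD1L, which releases formate from mitochondrial formyl-folate, was at 61.7, 64.7, 64.9 and 66.0 RPKM in the controls and at 59.6, 59.4, 60.2 and 59.6 RPKM after SB. Its groups were 1.48 RPKM apart, and the log2 fold change was -0.11 (SE 0.033) at an adjusted p of 0.0181. This call was lost without control replicate 4 (adjusted p = 0.0520) and without TMM factors (-0.0022, adjusted p = 0.960).

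The glycine cleavage system was represented by GLDC, the decarboxylase (P protein), and GCSH, the lipoyl carrier (H protein). GLDC was the least abundant of the set. It was at 11.5, 11.4, 11.7 and 11.9 RPKM in control replicates 1 to 4 and at 8.14, 7.42, 7.74 and 7.57 RPKM in SB-treated replicates 1 to 4. Its controls were, relative to their mean, the tightest of the 10, including replicate 1, and its log2 fold change was -0.54 (SE 0.036) at an adjusted p of 2.09e-06, or -0.54 without that replicate. GCSH was at 48.8, 38.7, 39.6 and 37.0 RPKM in the controls and at 24.9, 23.2, 24.3 and 24.5 RPKM after SB. It had the largest fall of the 10, with a log2 fold change of -0.73 (SE 0.076) at an adjusted p of 2.67e-05, and control replicate 1 was again apart, here the highest. Without it the log2 fold change was -0.65. Part of the GCSH value is uncertain, because 6 annotated pseudogenes carry its name and one of them, GCSHP3, has a row of its own at 5.58 RPKM in the controls and 6.63 RPKM after SB. Pseudogenes are also annotated for MTHFD2 (7), PSAT1 (4) and, with 1 each, PSPH, SHMT1, MTHFD1 and GLDC, and none of these has a row.

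**Figure D2:**
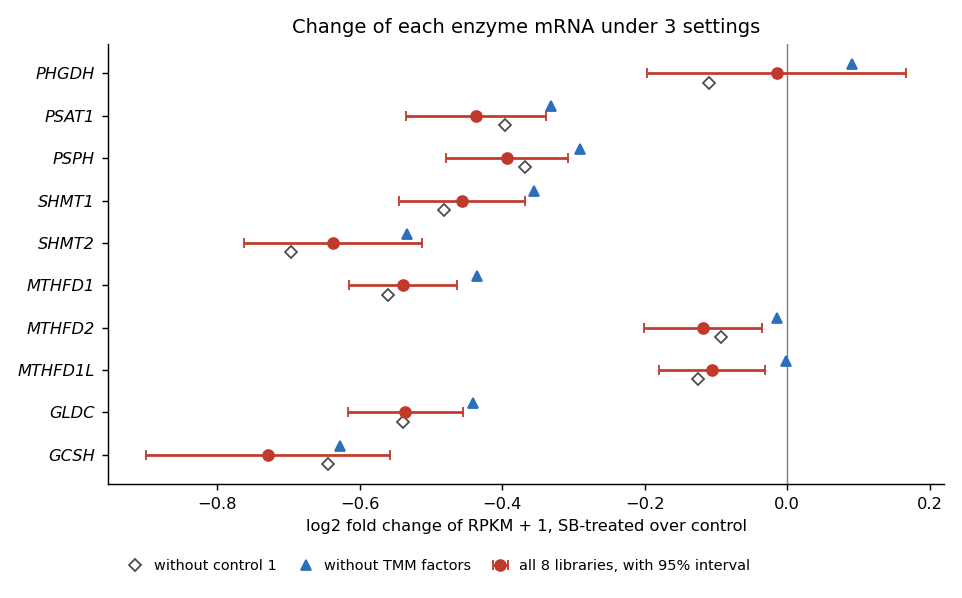
Log2 fold change of RPKM + 1, SB-treated over control, for the 10 enzymes with all 8 libraries (circles, 95% interval of limma), without control replicate 1 (diamonds) and without TMM factors (triangles). The 7 larger falls stay below zero under each setting, whereas PHGDH turns to 0.09 without TMM factors and MTHFD2 and MTHFD1L then lie near zero.

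Several members lie over other genes in hg38 (GENCODE). SHMT1 (chromosome 17, 18327860 to 18363563, minus strand) meets SMCR8 on the opposite strand, SHMT2 (chromosome 12, 57229573 to 57234935, plus strand) meets NDUFA4L2, MTHFD1 (chromosome 14, 64388031 to 64463457, plus strand) meets ZBTB25, and MTHFD2 (chromosome 2, 74186172 to 74217565, plus strand) meets SLC4A5. The libraries were stranded, but the sources used here do not state whether the counting used strand. In the controls these neighbours were at 5.66 RPKM for SMCR8, 1.65 RPKM for NDUFA4L2, 4.59 RPKM for ZBTB25 and 8.01 RPKM for SLC4A5, all below the enzyme they meet. After SB they were at 8.50, 2.02, 4.97 and 7.88 RPKM in the same order, again below it. MTHFD1L (chromosome 6, 150865679 to 151101887, plus strand) meets 5 annotated genes, of which 2 are on the opposite strand. GLDC (chromosome 9, 6532467 to 6645729, minus strand) meets 3, all on the opposite strand. GCSH (chromosome 16, 81081945 to 81096395, minus strand) meets 2 protein-coding genes on its own strand. None of the genes that MTHFD1L, GLDC or GCSH meets has a row. SHMT1, SHMT2, MTHFD1 and MTHFD2 also meet further annotated genes without a row. Any part of the genes met in the counted reads was not tested. PHGDH, PSAT1 (chromosome 9, 78297125 to 78330093, plus strand) and PSPH (chromosome 7, 56011051 to 56051604, minus strand) meet no other gene.

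Levels per length could be ordered. In the controls the order was PHGDH, PSAT1, MTHFD2, SHMT2, MTHFD1, MTHFD1L, GCSH, PSPH, SHMT1 and GLDC, with the first 35.9 times the last. PHGDH and PSAT1 overlapped between libraries, as did GCSH and PSPH, and the other neighbours did not. After SB the order was the same except that PSPH stood above GCSH, neighbours did not overlap, and the first was 53.2 times the last. The narrowest step after SB lay between PSAT1, whose lowest library was at 234.2 RPKM, and MTHFD2, whose highest was at 233.9 RPKM.

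Ratios between members of 1 library do not depend on how libraries are scaled, so 4 of them were compared with an exact permutation test (two-sided, 4 against 4, smallest possible p 0.0286). The ratio of MTHFD1L to MTHFD1 was 0.526, 0.522, 0.529 and 0.526 in control replicates 1 to 4 and 0.723, 0.706, 0.711 and 0.709 in SB-treated replicates 1 to 4. The groups were far apart relative to their spread, with a log2 difference of 0.44 (SE 0.0086). The ratio of MTHFD2 to MTHFD1 was 2.23, 1.99, 1.98 and 1.93 in the controls and 2.84, 2.67, 2.66 and 2.75 after SB, a log2 difference of 0.43 (SE 0.052). The mRNAs of both mitochondrial enzymes thus rose relative to that of the cytosolic enzyme. Each of the 3 mRNAs fell on the deposited scale (the falls of MTHFD2 and MTHFD1L were not called without TMM factors). The reverse was seen for the hydroxymethyltransferases. SHMT2 over SHMT1 was 6.47, 6.92, 7.12 and 7.19 in the controls and 6.32, 6.10, 6.12 and 6.12 after SB, with a log2 difference of -0.17 (SE 0.037). PSAT1 over PHGDH was 1.03, 0.708, 0.705 and 0.701 in the controls and 0.583, 0.566, 0.574 and 0.586 after SB, a log2 difference of -0.42 (SE 0.14) that became -0.29 without control replicate 1. In each of the 4 ratios the groups did not overlap, and the exact permutation p was 0.0286, also after adjustment over the 4. Groups that do not overlap give this smallest p whatever the size of the difference. Among single genes, 30.5% did not overlap in the lower direction. The share of all gene pairs whose ratio separates in this way was not measured, so these 4 are not shown to be particular. For SHMT2 over SHMT1 the adjusted p was 0.0571 when any 1 of SB-treated replicates 1, 2, 3 or 4 was left out.

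**Figure D3:**
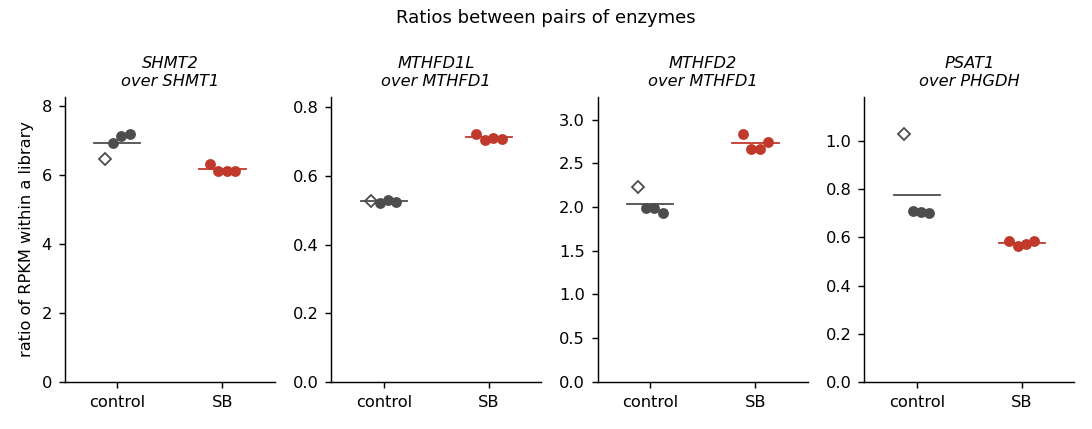
Ratio of RPKM between 2 enzymes within each library (linear axes from 0), controls in grey with replicate 1 as an open diamond, SB-treated cells in red, lines at the geometric mean. Both MTHFD ratios are higher in every SB-treated library, and SHMT2 over SHMT1 and PSAT1 over PHGDH are lower.

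Genes around the 10 enzymes were taken from lists of 80 genes, of which 59 had a row. Of these, 16 rose, 26 fell and 17 did not pass the test, with a median log2 fold change of -0.06. Among all genes the shares called higher and lower were 33.0% and 32.6%, as above. Without control replicate 1, 19 of the 59 rose and 30 fell, and the shares over all genes were then 37.6% and 37.9%. The added 1 in log2(RPKM + 1) understates the change of genes of low level, so for those named below the ratio of the mean RPKM is given too. The partners of GLDC and GCSH in glycine cleavage went in opposite directions. AMT, the aminomethyltransferase (T protein), rose from 0.795 ± 0.0946 to 1.68 ± 0.0635 RPKM (SD, n = 4), 2.11 times the control mean and a change of 0.58 in log2(RPKM + 1) (limma adjusted p = 4.07e-06), but stood at a fraction of the level of its partners. DLD, the dihydrolipoyl dehydrogenase shared with other complexes, fell from 52.6 ± 4.48 to 41.8 ± 0.485 RPKM (SD, n = 4), a change of -0.32 in log2 (limma adjusted p = 5.99e-04).

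Of 13 folate handling genes with a row, 3 rose and 5 fell, where 33.0% and 32.6% of all genes did. SLC25A32, the mitochondrial folate carrier, fell from 18.1 ± 1.79 to 12.3 ± 0.519 RPKM (SD, n = 4), a change of -0.52 in log2 (limma adjusted p = 7.35e-05). SLC46A1, a proton-coupled folate transporter, rose from 1.70 ± 0.144 to 2.29 ± 0.132 RPKM (SD, n = 4), 1.35 times the control mean and a change of 0.29 in log2(RPKM + 1) (limma adjusted p = 5.33e-04).

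Of 8 serine and glycine transporters with a row, 3 rose and 1 fell, where 33.0% and 32.6% of all genes did. SLC1A4, a neutral amino acid transporter that takes serine, had the largest change in these lists on the log2(RPKM + 1) scale and rose from 4.01 ± 0.377 to 9.35 ± 0.243 RPKM (SD, n = 4). Its log2 fold change was 1.05 (limma adjusted p = 6.48e-07), and the ratio of the mean RPKM was 2.33, below those of BAAT (3.14), DMGDH (2.84) and MAT1A (2.55), whose control means were all under that of SLC1A4. SLC38A2, a sodium-coupled neutral amino acid transporter, rose by a log2 fold change of 0.24 (limma adjusted p = 0.00123). SFXN1, the mitochondrial serine importer, fell from 79.3 ± 1.42 to 58.0 ± 0.653 RPKM (SD, n = 4), a change of -0.45 in log2 (limma adjusted p = 2.50e-06). Without control replicate 1, 3 of the 8 transporters rose and 3 fell, where 37.6% and 37.9% of all genes did.

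The genes that would join benzoate to glycine were nearly all without a row. Of 10 listed acyl-CoA synthetases of the ACSM family and glycine acyltransferases, 9 had none, including GLYAT, ACSM2A and ACSM2B. A gene has a row only when it exceeded 1 CPM (reads scaled to library size) in at least 2 libraries. The exception was ACSM3, at 1.61 ± 0.169 RPKM in the control group and 1.44 ± 0.0185 RPKM in the SB-treated group (SD, n = 4; limma adjusted p = 0.106).

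All 6 enzymes of de novo purine synthesis, which takes up glycine and formyl-folate, fell, where 32.6% of all genes did. Their median log2 fold change was -0.49, against 0.00451 over all genes. PPAT, the committing enzyme, fell from 53.7 ± 4.85 to 34.2 ± 1.13 RPKM (SD, n = 4), a change of -0.63 in log2 (limma adjusted p = 1.38e-05). PAICS fell by 0.56 on the log2 scale and ATIC, which uses formyl-folate, fell by 0.50. PFAS had the smallest fall, at 0.23 on the log2 scale (limma adjusted p = 0.0411), with groups that overlapped.

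Other genes listed around glycine and serine were divided. Of 11 genes with a row in the glycine list, 3 rose and 7 fell, against 33.0% and 32.6% of all genes. GCLC and DMGDH, which rose, and GCLM and GAMT, which fell, do not themselves use or yield glycine. ALAS1, which starts heme synthesis from glycine, fell from 26.7 ± 0.637 to 16.6 ± 0.567 RPKM (SD, n = 4), a change of -0.65 in log2 (limma adjusted p = 8.81e-07). SARDH, a sarcosine dehydrogenase that yields glycine, fell by 0.53 on the log2(RPKM + 1) scale, from 1.67 to 0.843 RPKM (0.504 times the control mean). GCAT, another enzyme whose reaction yields glycine, fell by 0.45. Of 8 genes listed as serine users, 3 rose and 2 fell, against 33.0% and 32.6% of all genes. Without control replicate 1 these were 5 and 3, against 37.6% and 37.9% of all genes. CTH, the cystathionine lyase that makes cysteine, fell from 90.4 ± 6.25 to 54.3 ± 1.47 RPKM (SD, n = 4), a change of -0.72 in log2 (limma adjusted p = 2.39e-06). CTH takes no serine itself. CBS, which takes serine in that route, had a log2 fold change of -0.06 (limma adjusted p = 0.477). Without control replicate 1 the CBS value was -0.14 (limma adjusted p = 4.12e-04). SDSL, a serine dehydratase-like enzyme, and SPTLC2, a subunit of serine palmitoyltransferase, rose by log2 fold changes of 0.46 and 0.37. Of 7 methionine cycle genes, 2 rose and 3 fell, against 33.0% and 32.6% of all genes. MAT2A, the methionine adenosyltransferase of most tissues, rose from 47.3 ± 1.54 to 64.6 ± 1.43 RPKM (SD, n = 4), a change of 0.44 in log2 (limma adjusted p = 6.21e-06), MAT1A rose by 0.46 on the log2(RPKM + 1) scale, from 0.316 to 0.805 RPKM (2.55 times the control mean), and MTRR, which reactivates methionine synthase, fell by 0.43.

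**Figure D4:**
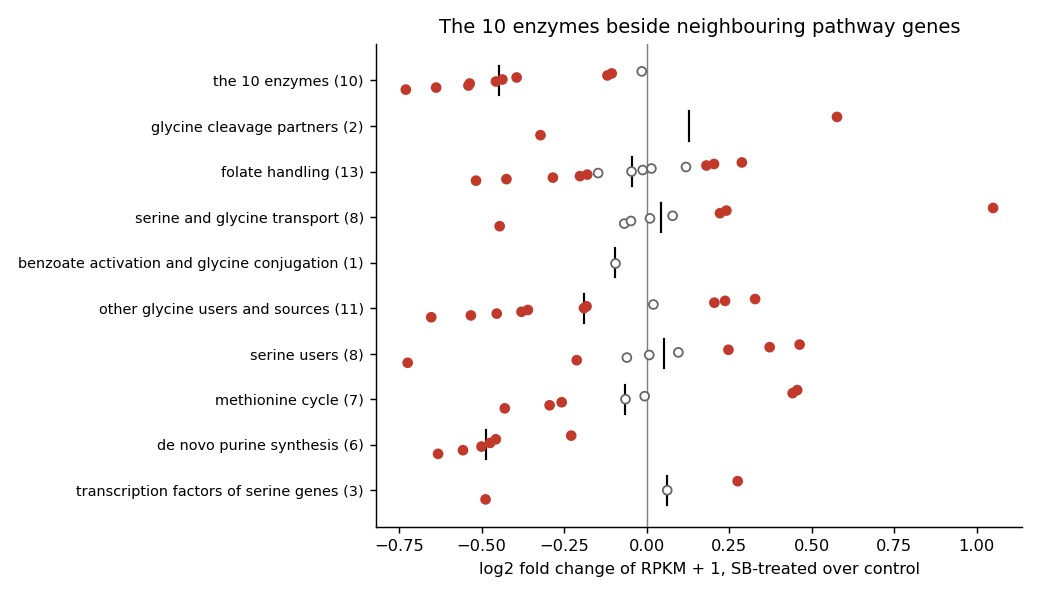
Log2 fold change of RPKM + 1, SB-treated over control, of the 10 enzymes and of each pathway gene with a row (number in brackets), red where the limma adjusted p was below 0.05 and open otherwise, with a bar at each median. The 10 enzymes and the 6 purine genes lie at or below zero, and the other lists of more than 1 gene hold values on both sides.

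Transcription factors known to act on serine synthesis genes went different ways. ATF4, the amino acid response factor, rose from 249.6 ± 7.80 to 302 ± 4.00 RPKM (SD, n = 4), a change of 0.28 in log2 (limma adjusted p = 8.51e-05). Its mRNA was higher in 4 of 4 SB-treated libraries than in any control. Of the serine synthesis enzymes, PSAT1 and PSPH were lower in 4 of 4, and the groups of PHGDH overlapped. MYC fell from 131 ± 4.80 to 93.0 ± 1.29 RPKM (SD, n = 4), a change of -0.49 in log2 (limma adjusted p = 3.56e-06). NFE2L2 was at 20.3 ± 1.91 RPKM in the control group and 21.2 ± 0.421 RPKM in the SB-treated group (SD, n = 4) with a limma adjusted p of 0.363, which was 0.00221 without control replicate 1. Any part of these mRNAs in the falls described above was not tested.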

How the data were processed

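Libraries of total RNA from 4 control and 4 SB-treated replicates were aligned (TopHat2 2.1.0, hg38) and assigned to genes (featureCounts 1.5.0) by the authors. They removed genes that did not pass 1 CPM in 2 or more libraries, applied TMM factors in edgeR 3.16.5, and the authors deposited RPKM values for each library. The deposited table also holds a mean log2 CPM, used here only for gene lengths, and the authors' fold changes, p-values and FDR, which were not used. Columns of per-sample values left unused numbered 0.

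Whole reads (within 0.01 of a read, slightly wider at very high counts) were found from the RPKM for all but 1 of 14526 genes. A single solution existed for 99.05% of genes, and otherwise the one nearest the approximate gene length was taken. The procedure was tested on simulated data. The log2(RPKM + 1) values of the groups were compared by limma (version 3.58.1, R 4.3.3), two-sided, without further filter or block, with Benjamini-Hochberg adjustment over all 14526 genes, also tested on simulated data. A count test was not the main fit because the values are RPKM. Ratios were compared with exact permutation tests in Python 3.11.15. Genes and lists were chosen with earlier results of these data known. All 10 enzymes are named. From each pathway list up to 3 genes are named, those with the largest change in log2(RPKM + 1) among called genes whose groups did not overlap, with ATF4, MYC and NFE2L2. Some items that this rule or the marker lists would name are not reported here. PFAS, GCSHP3, ACSM3, BAAT, DMGDH, GCLC, GCLM, GAMT and CBS were added after their values were seen. Coordinates are from GENCODE 44. Alternatives were a pseudocount of 0.1, at least 1 RPKM in every library, no TMM factors, median-of-ratios scaling, a replicate block, voom on recovered reads, an intensity trend and leaving out each library. Voom with replicate block was added after seeing the data.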

Additional observations from a re-analysis of the deposited data

Results flagged for a closer look

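In 4 of 30 groups of 4 libraries, 1 library lay apart from the others, by a gap to its nearest neighbour above Dixon's critical value as a share of the whole range, where chance gives about 1.5. Control replicate 1 was lowest for PHGDH, with a gap of 0.951 of the range, and highest for PSAT1, with 0.971, and therefore also for the ratio of PSAT1 to PHGDH, with 0.972. In the remaining case SB-treated replicate 1 was highest for SHMT2 over SHMT1, with 0.908. The library apart from its group was control replicate 1 in 14.6% of all genes, against at most 2.30% for any other library. PHGDH in control replicate 1 was 0.767 times the mean of the other controls and PSAT1 was 1.12 times that mean. The cause was not tested.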

How the results depend on the processing

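PSAT1, PSPH, SHMT1, SHMT2, MTHFD1, GLDC and GCSH were called lower in each of 16 alternative fits, where the largest adjusted p of any was 0.000191. The counts of calls stayed within 1.5 times of those reported in each of the alternatives run. The log2 fold change of PHGDH turned to 0.0904 (adjusted p = 0.365) when TMM factors were taken out and ranged from -0.11 to 0.0208 when each library was left out. The correlation of deviations between same-numbered replicates was 0.380, 0.327, 0.173 and -0.160 for replicates 1 to 4. The mean over the other pairs was -0.0541, and the best match was the own number for replicates 1 and 2. The numbers were not taken as pairs in the main fit, and these values do not settle whether they are. With the replicate block, calls over all genes were 4885 higher and 4894 lower. For the ratios, sign permutation within replicate numbers as a block gave p = 0.125, the smallest that 4 pairs allow, at differences of -0.167 (SHMT2 over SHMT1), 0.438 (MTHFD1L over MTHFD1), 0.426 (MTHFD2 over MTHFD1) and -0.424 (PSAT1 over PHGDH), so this exact test could not pass the threshold. SHMT2 over SHMT1 ranged from -0.199 to -0.148 when each library was left out, and its adjusted p was 0.0571 without any 1 of the SB-treated replicates. MTHFD2 and MTHFD1L lost their call under the settings named in the report. Replicates are described as biological, and whether same-numbered cultures were handled together is not given in the sources used here.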
